A study of Homo sapiens with 18 samples.

Results

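OCI-AML2 cells treated with OTX015 were compared with OCI-AML2 cells given the vehicle, using the 6 libraries whose labels name this line with either agent, out of 18 libraries in the series. OCI-AML2, called AML2 in the sample labels, is an established human acute myeloid leukaemia line, and both groups are libraries of this line alone, so the results are those of 1 cell line. The vehicle was DMSO, with 3 libraries, and the other 3 libraries came from cells given OTX015. The 12 remaining libraries, which shared the statistical model, are OCI-AML2 with JQ1 and OCI-AML3 with DMSO, JQ1 or OTX015. Doses, treatment times and genotypes are not in the labels, and the labels do not say whether the 3 libraries of a group are separate cultures.

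OTX015 (birabresib) occupies the acetyl-lysine pockets of the BET bromodomain proteins, among them BRD2 and BRD3, and so keeps them from binding acetylated histones at promoters and enhancers. BET proteins help RNA polymerase II leave the promoter, partly by bringing in the kinase P-TEFb, and in leukaemia cells MYC is the best known gene that depends on them. HEXIM1, the protein that holds P-TEFb inactive within the 7SK ribonucleoprotein, is widely read as a marker of exposure to such compounds. Cap analysis of gene expression (CAGE) reads a short tag at the capped 5′ end of RNA, so that a count gives both the amount of RNA and the promoter it started from, and pairs of divergent starts outside promoters mark active enhancers.

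The vehicle libraries held 957036 to 2163106 tags in genes and the OTX015 libraries 452667 to 1215251. In the first principal component, which held 82.4% of the variance of the 6 libraries, all vehicle libraries lay on 1 side and all OTX015 libraries on the other. The second held 8.06% and set OTX015 replicate 3, the shallowest library, apart from its group. MALAT1, a long non-coding RNA of the nucleus, had a share of 0.102% to 0.205% in the vehicle libraries and 2.08% to 3.16% in the OTX015 libraries, and the mitochondrial share was 0.318% to 0.555% and 0.571% to 1.17%. Here and below, a mean is given ± SD over the 3 libraries of a group. Myeloid marker genes summed to 2228 to 2980 tags per 1000000 tags in genes with vehicle and 1492 to 1893 with OTX015, without TMM scaling. Of 11 myeloid markers 10 had a tag in the 6 libraries, and MPO was missing from the gene symbols counted. In the rest of the text, CPM is the tag count per 1000000 tags of the TMM-scaled library. Of 10 markers each, T and NK cells had 1 with a tag, erythroid, epithelial and fibroblast or endothelial cells 1 each, and B cells 3. In the T and NK list the 1 detected gene had 28.2 to 34.2 tags per 1000000 with vehicle and 6.63 to 9.68 with OTX015, again without TMM scaling. CD3D, CD3E and CD3G were missing from the gene symbols counted. A missing symbol is not a measured level. The part of these technical and marker values in the results below was not tested.

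OTX015 reset a large share of the genes in OCI-AML2. A gene is said to rise or fall where its Benjamini-Hochberg adjusted p was under 0.05 in edgeR's quasi-likelihood test. Of 10031 genes tested, 2053 rose (20.5%) and 1993 fell (19.9%), so 40.3% were called, with 1529 rises and 1326 falls of at least 2-fold. In 5169 of the 10031 genes the OTX015 and vehicle libraries did not overlap, so a lack of overlap was common. The median log2 change over all genes was 0.02. Scaled by total tag count in place of TMM, which assumes that most genes keep their level, the median moved to 0.21 and the calls to 2262 rises and 1441 falls. Genes of ribosome assembly, mitochondria, nucleotides, sterols and DNA replication made up lists with many falls. Immediate early genes, NF-kB genes, p53 targets and cytokine receptors made up lists with many rises, as the plot of gene lists shows.

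**Figure D1:**
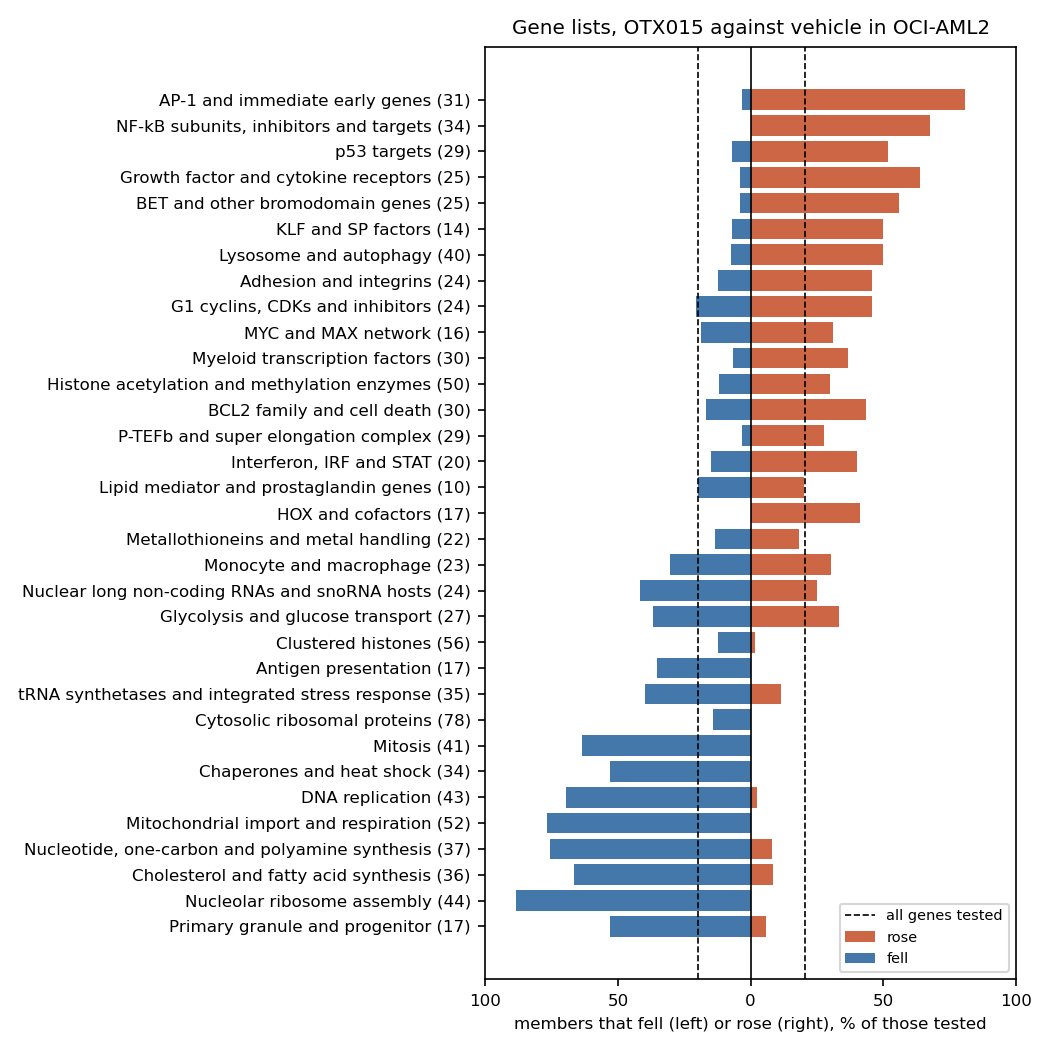
Share of the tested members of each gene list that fell (bars to the left) or rose (bars to the right) with OTX015 in OCI-AML2, in percent, with the number of tested members in brackets and lists ordered by their median log2 change. Dashed lines mark the shares over all genes tested, 19.9% and 20.5%; the nucleolar list reaches 88.6% on the left and the AP-1 and immediate early list 80.6% on the right.

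Genes for bromodomain proteins mostly rose. Of 25 tested, 14 rose and 1 fell (median log2 0.84). BRD3, a BET protein itself, read 48, 48.8 and 39.6 CPM in the 3 vehicle libraries and 86.4, 87.1 and 71.6 CPM with OTX015. Every OTX015 library was above every vehicle library (log2 0.84, SE 0.21, adjusted p = 0.00257). BRD2, its close relative, read 23.6, 25 and 26.8 CPM and then 38.5, 33.9 and 80 CPM, with the groups apart but OTX015 replicate 3 far above the other two (log2 0.92, SE 0.32, adjusted p = 0.0247). Its call was lost without OTX015 replicate 3 (log2 0.52, adjusted p = 0.218), without vehicle replicate 1 (0.87, adjusted p = 0.0678), without vehicle replicate 2 (0.91, adjusted p = 0.0667) and with the libraries numbered 1 and 2 alone (0.60, adjusted p = 0.0578). Outside the BET family, the acetyltransferase gene KAT2B rose from 1.53 ± 0.22 to 12.4 ± 4.36 CPM (SD, n = 3; log2 2.94, SE 0.53). BRPF3, a scaffold of histone acetyltransferase complexes, rose from 7.17 ± 1.56 to 26 ± 4.1 CPM.

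Among 29 genes of P-TEFb and the super elongation complex, 8 rose (27.6%) and 1 fell (3.45%), with a median log2 of 0.31. Over all genes tested 20.5% rose and 19.9% fell. HEXIM1 stood far above the rest of this list. It read 15.2, 10.8 and 26.8 CPM with vehicle and 205, 230 and 526 CPM with OTX015, so that the lowest treated library was above the highest vehicle library and replicate 3 was the highest of both groups (log2 4.25, SE 0.51, adjusted p = 4.67e-07). MEPCE, which caps the 7SK RNA, rose from 57.3 ± 28 to 162 ± 39.8 CPM (log2 1.53, SE 0.28). ELL2, an elongation factor of the super elongation complex, rose from 4.93 ± 3.02 to 20.8 ± 8.35 CPM (log2 2.15, SE 0.40), and CDK13, a kinase of the polymerase tail, from 16.4 ± 2.49 to 51 ± 20.5 CPM. The HEXIM1 promoter, the 250 bases before the RefSeq start (GRCh38.p14, chr17:45148225-45148474, plus strand), is shown because HEXIM1 is the clearest rise of this list. Capitals mark a TATA box (TATAAA), from 29 to 24 bases before the start.
HEXIM1: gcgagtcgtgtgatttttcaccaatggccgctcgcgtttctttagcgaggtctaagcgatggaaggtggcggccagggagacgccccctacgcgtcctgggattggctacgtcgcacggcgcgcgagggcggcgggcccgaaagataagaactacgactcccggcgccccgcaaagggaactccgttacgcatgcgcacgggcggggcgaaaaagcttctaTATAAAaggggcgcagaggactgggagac

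MYC drives growth genes as a dimer with MAX, and MXD proteins compete for the same partner. MYC read 406, 447 and 464 CPM with vehicle and 50.2, 41.6 and 59 CPM with OTX015 (log2 −3.15, SE 0.25, adjusted p = 6.7e-10). The vehicle libraries were tightly grouped and well above all OTX015 libraries. In the other direction, MXD1 read 8.43, 9.76 and 10.2 CPM with vehicle and 40.9, 41.6 and 50.5 CPM with OTX015 (log2 2.19, SE 0.34, adjusted p = 1.34e-05). MXD4 rose from 32.3 ± 8.28 to 125 ± 4.7 CPM (log2 1.92, SE 0.24). Of the 16 tested genes of this network, 5 rose (31.2%) and 3 fell (18.8%), against 20.5% and 19.9% of all genes tested (median log2 0.50). CCDC26, a long non-coding RNA gene on the MYC chromosome, had 124 tags with vehicle and 0 with OTX015, at least 25.6-fold lower against a floor of 3 tags over the group.

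The genes that build ribosomes fell almost as a block. Of 44 tested nucleolar genes, 39 fell and 0 rose (median log2 −1.45), where 19.9% of all genes fell. NPM3, a nuclear chaperone related to NPM1, read 405, 370 and 350 CPM with vehicle and 15.2, 18.4 and 8.42 CPM with OTX015, the widest gap of the list (log2 −4.64, SE 0.32, adjusted p = 7.2e-11). NOP16 went from 258, 225 and 310 CPM to 30.4, 40.6 and 35.8 CPM, again with no overlap (log2 −2.88, SE 0.23). EBNA1BP2 and LYAR, both factors of nucleolar ribosome assembly, fell from 214 ± 31.3 to 41.2 ± 4.73 CPM and from 137 ± 30.8 to 33.6 ± 3.95 CPM. NPM1, the abundant nucleolar chaperone, averaged 2900 ± 456 CPM with vehicle and fell to 1056 ± 131 CPM with OTX015 (log2 −1.46, SE 0.37, adjusted p = 0.00243).

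The proteins of the ribosome itself moved less. Of 78 cytosolic ribosomal protein genes, 11 fell and 0 rose, a share of 14.1% that lies below the 19.9% of all genes, although their median log2 change was −0.63. RPL27 fell from 658 ± 97.3 to 150 ± 44.6 CPM (log2 −2.11, SE 0.38) and RPSA from 1014 ± 447 to 304 ± 92.7 CPM. This count moved with the settings: 24 fell when only the vehicle and OTX015 libraries entered the fit, 20 with the replicate number as a block, 19 with DESeq2 and 46 with the libraries numbered 1 and 2 alone. It came to 6 without vehicle replicate 1 or without OTX015 replicate 1, and to 7 without OTX015 replicate 3. Ribosomal protein genes have near-identical copies, between which tags can be split.

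Mitochondrial and nucleotide genes fell with the nucleolar ones. Of 52 genes of mitochondrial import and respiration, 40 fell and 0 rose (median log2 −1.07). HSPD1, the chaperonin of the mitochondrial matrix, read 292, 204 and 332 CPM with vehicle and 51.4, 46.4 and 44.2 CPM with OTX015. The treated libraries were nearly equal and all below the vehicle group (log2 −2.53, SE 0.24, adjusted p = 1.15e-08). ATP5MC1, a subunit of the ATP synthase rotor, fell from 263 ± 33.2 to 47.8 ± 19 CPM, TIMM13 of the inner membrane import path from 433 ± 38.3 to 97.1 ± 18.2 CPM, and TOMM40, the outer membrane pore, from 122 ± 39.8 to 27.9 ± 4.29 CPM.

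Of 37 genes of nucleotide, one-carbon and polyamine synthesis, 28 fell and 3 rose (median log2 −1.07). ATIC, which closes the purine ring, read 75.8, 90 and 86.9 CPM with vehicle and 9.34, 20.3 and 14.7 CPM with OTX015 (log2 −2.47, SE 0.26, adjusted p = 8.46e-08). DHODH of pyrimidine synthesis fell from 33.8 ± 3.67 to 5.93 ± 1.77 CPM (log2 −2.38, SE 0.33) and ADSL, another purine enzyme, from 144 ± 15 to 45.3 ± 8.5 CPM (log2 −1.64, SE 0.22). A rise in this list came from SAT1, which breaks polyamines down: 44.7, 30.4 and 31.9 CPM became 241, 322 and 558 CPM (log2 3.37, SE 0.35, adjusted p = 7.71e-08). Every OTX015 library exceeded the vehicle libraries several-fold, replicate 3 the most.

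The E-box CACGTG, which MYC and MAX bind, is a palindrome and so reads the same on both strands. It occurred in 7.43% of 27305 RefSeq promoters of 300 bases (250 before to 50 after the start), and in 13.6% of the 1599 matched genes that fell, 10.6% of the 1554 that rose and 10% of the 4661 not called. Within the lists, 13 of 35 nucleolar genes with a promoter sequence held it, of which 11 fell. So did 6 of 31 nucleotide genes, of which 6 fell, and 5 of 37 mitochondrial genes, of which 5 fell. In the whole lists 88.6% of nucleolar, 75.7% of nucleotide and 76.9% of mitochondrial genes tested fell, so most members fell whatever their motif. A match is a string of letters and not a measured binding site. The promoters of ATIC (chr2:215311809-215312058, plus strand), HSPD1 (chr2:197500275-197500524, minus strand) and CDK4 (chr12:57752311-57752560, minus strand), each the 250 bases before the RefSeq start in GRCh38.p14, are shown as genes that fell and hold the E-box, which stands in capitals. CDK4 holds it 3 times, beginning 216, 196 and 101 bases before the start, HSPD1 once, 88 bases before, and ATIC once, 46 bases before. Genes that rose can hold it too: it stands in lower case in the sequences of TNFAIP3 and DUSP1 further below.
ATIC: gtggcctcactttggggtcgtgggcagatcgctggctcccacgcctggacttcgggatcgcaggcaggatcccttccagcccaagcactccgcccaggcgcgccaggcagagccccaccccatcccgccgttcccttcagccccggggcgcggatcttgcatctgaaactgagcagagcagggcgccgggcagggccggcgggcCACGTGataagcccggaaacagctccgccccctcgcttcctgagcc
HSPD1: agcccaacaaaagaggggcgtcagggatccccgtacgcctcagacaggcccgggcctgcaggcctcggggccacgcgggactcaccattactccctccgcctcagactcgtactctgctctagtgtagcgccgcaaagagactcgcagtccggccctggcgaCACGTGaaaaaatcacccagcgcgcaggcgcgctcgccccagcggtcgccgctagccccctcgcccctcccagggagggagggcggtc
CDK4: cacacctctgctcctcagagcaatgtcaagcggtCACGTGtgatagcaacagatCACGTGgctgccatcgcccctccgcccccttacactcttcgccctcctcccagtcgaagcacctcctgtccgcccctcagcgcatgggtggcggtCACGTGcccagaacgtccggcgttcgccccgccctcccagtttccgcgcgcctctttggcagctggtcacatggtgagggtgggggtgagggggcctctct

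Sterol synthesis fell as well. Of 36 cholesterol and fatty acid genes, 24 fell and 3 rose (median log2 −1.30). HMGCS1, which makes HMG-CoA, read 132, 86.8 and 107 CPM with vehicle and 10.5, 13.5 and 16.8 CPM with OTX015, without overlap (log2 −3.02, SE 0.32, adjusted p = 8.85e-08). DHCR7, the last step to cholesterol, fell from 108 ± 18.9 to 18.5 ± 5.78 CPM and CYP51A1, the lanosterol demethylase, from 183 ± 23.6 to 40.9 ± 6.34 CPM. MYLIP, which targets the LDL receptor for destruction, was among the rises, from 28.3 ± 7.93 to 123 ± 9.77 CPM (log2 2.07, SE 0.25).

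Of 35 tRNA synthetase and integrated stress response genes, 14 fell and 4 rose (median log2 −0.58). The valyl synthetase gene VARS fell from 79.4 ± 17.8 to 15.1 ± 2.17 CPM and the tyrosyl synthetase gene YARS from 208 ± 38.1 to 57.3 ± 9.71 CPM. Glycolysis genes went both ways, with 10 falls and 9 rises among 27 (median log2 −0.30). Without vehicle replicate 2 or without OTX015 replicate 3, 5 rose. GPI and PFKP, early enzymes of the path, fell from 307 ± 56.7 to 83.8 ± 20.2 CPM and from 122 ± 9.6 to 33.7 ± 7.04 CPM. TXNIP, which limits glucose uptake, rose: 30.3, 21.7 and 48.6 CPM became 279, 293 and 204 CPM (log2 3.01, SE 0.42, adjusted p = 3.66e-06). All treated libraries were at least several times the highest vehicle library.

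Genes of DNA replication and mitosis fell by smaller factors. Of 43 replication genes, 30 fell and 1 rose (median log2 −0.93). POLD2, a subunit of polymerase delta, read 152, 152 and 123 CPM with vehicle and 40.9, 47.4 and 29.5 CPM with OTX015, with no overlap (log2 −1.82, SE 0.22). RFC3 of the clamp loader fell from 53.5 ± 1.97 to 17.5 ± 6.19 CPM, and UHRF1, which carries DNA methylation through replication, from 105 ± 19 to 48.7 ± 4.78 CPM. Of 41 mitosis genes, 26 fell and 0 rose (median log2 −0.75), among them CCNA2 (103 ± 21.6 to 33.5 ± 8.92 CPM), MAD2L1 of the spindle checkpoint (262 ± 99.9 to 83.7 ± 24.4 CPM) and PLK1 (130 ± 16.9 to 56 ± 5.38 CPM). That count was 14 with total tag scaling, 17 without OTX015 replicate 2 and 14 without OTX015 replicate 3.

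Regulators of the G1 phase moved in both directions. Of 24 tested, 11 rose and 5 fell (median log2 0.51); the falls came to 3 with total tag scaling and without any 1 of vehicle replicates 1 and 2 or OTX015 replicates 2 and 3. CDK4, the kinase that opens the G1 phase, read 161, 138 and 141 CPM with vehicle and 38.5, 37.7 and 42.1 CPM with OTX015 (log2 −1.90, SE 0.23, adjusted p = 6.27e-07). CDKN2D, an inhibitor of CDK4 and CDK6, read 10.1, 14.1 and 15.3 CPM and then 68.9, 70.6 and 61.1 CPM (log2 2.35, SE 0.26, adjusted p = 1.91e-07). The kinase and its inhibitor thus lay in opposite order in the groups, and neither pair of groups overlapped. CCNG2, a cyclin tied to growth arrest, rose from 37.8 ± 5.67 to 131 ± 9.48 CPM. CDK6 was 41.9 ± 6.59 CPM with vehicle and 57.6 ± 11.1 CPM with OTX015, with overlapping groups (log2 0.42, SE 0.48, adjusted p = 0.506).

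**Figure D2:**
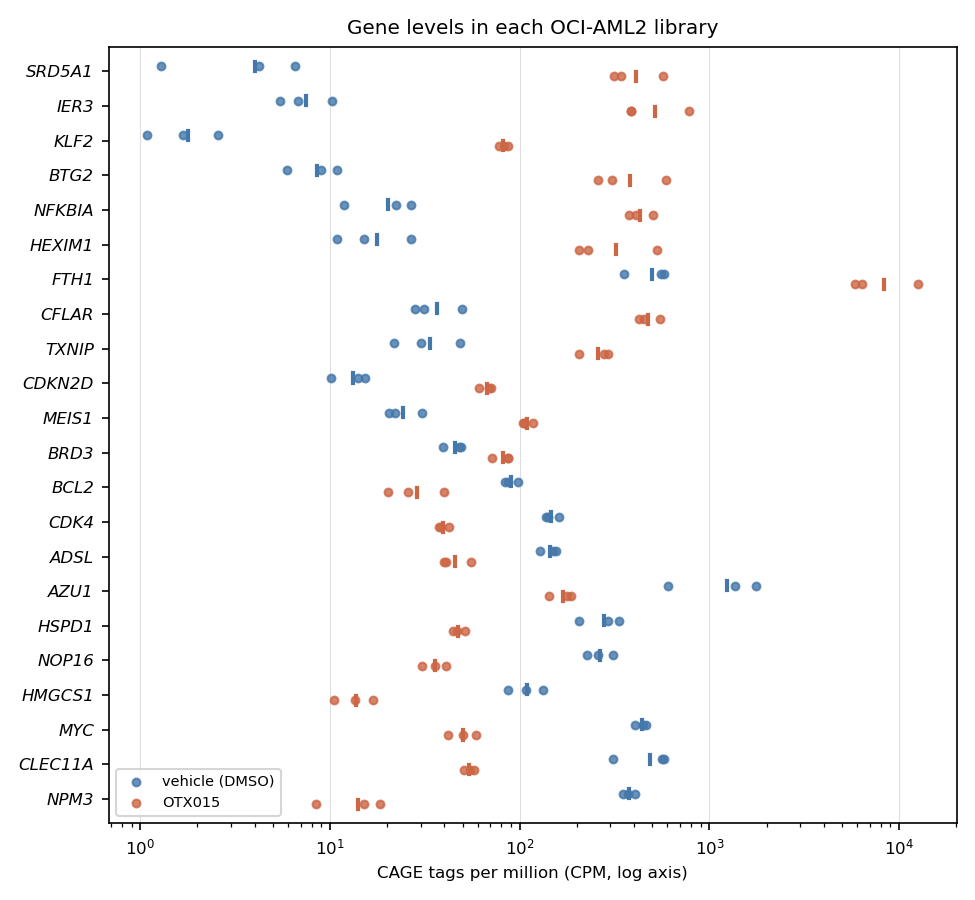
Levels of 22 genes in each of the 6 OCI-AML2 libraries, in CPM on a log axis; points are libraries, short vertical bars the mean of 3, blue vehicle and orange OTX015. The groups do not overlap for any gene shown; SRD5A1 at the top goes from 1.28 to 6.51 CPM with vehicle to 315 to 571 CPM with OTX015, and NPM3 at the bottom from 350 to 405 CPM to 8.42 to 18.4 CPM.

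The immediate early genes, transcribed within minutes of a stimulus in most cells, were the list with the largest share of rises. Of 31 AP-1 and immediate early genes, 25 rose and 1 fell (median log2 2.09), where 20.5% of all genes rose. DUSP6, a phosphatase that switches off the ERK kinases, read 40.4, 36.9 and 25.6 CPM with vehicle and 524, 348 and 333 CPM with OTX015 (log2 3.52, SE 0.26, adjusted p = 2.23e-10). DUSP5, with the same role in the nucleus, rose from 4.09 ± 0.907 to 72.6 ± 35.6 CPM, and ZFP36, which speeds the decay of AU-rich mRNAs, from 85.4 ± 17.5 to 699 ± 64.2 CPM (log2 3.04, SE 0.32). DUSP1 had 2, 0 and 0 tags with vehicle and 12, 25 and 12 tags with OTX015, a ratio of 39.5 with a 95% counting interval of 10.4 to 335. BTG2, an antiproliferative gene counted with the G1 regulators and the p53 targets, went from 5.9, 10.8 and 8.94 CPM to 305, 258 and 587 CPM (log2 5.41, SE 0.53, adjusted p = 2.56e-08).

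NF-kB genes rose nearly as often. Of 34 tested, 23 rose and 0 fell (median log2 1.41). NFKBIA, whose protein holds NF-kB in the cytoplasm, read 11.8, 22.2 and 26.8 CPM with vehicle and 503, 378 and 408 CPM with OTX015. The lowest OTX015 library was far above the highest vehicle library (log2 4.42, SE 0.30, adjusted p = 6.14e-11). TNFAIP3, a deubiquitinase that dampens the pathway, went from 29.5, 28.2 and 23 CPM to 117, 99.6 and 99 CPM (log2 1.95, SE 0.21, adjusted p = 9.2e-08). IER3, a stress-response gene, rose the most in the list, from 6.74, 5.42 and 10.2 CPM to 384, 384 and 783 CPM (log2 6.17, SE 0.48, adjusted p = 4.54e-10). BCL3, an inhibitor-like partner of NF-kB in the nucleus, rose from 3.57 ± 0.935 to 129 ± 21.5 CPM (log2 5.11, SE 0.44).

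The NF-kB motif (GGGA, then any base, then TTTCC), searched on both strands, occurred in 0.579% of all 27305 promoters, in 1.09% of the matched genes that rose, in 0.375% of those that fell and in 0.472% of those not called. Of 28 tested NF-kB genes with a promoter sequence, 5 held it (NFKB1, REL, NFKBIA, NFKBIZ and TNFAIP3), and 5 of these rose. In the whole NF-kB list 67.6% of genes tested rose. The cyclic AMP response element TGACGTCA was in 3 of 25 immediate early genes with a promoter sequence, and 3 of these rose. In the whole immediate early list 80.6% of genes tested rose. Over all genes the element was in 3.09% of rises, 3.63% of falls, 3.75% of genes not called and 1.98% of all promoters. The 250 bases before the RefSeq start in GRCh38.p14 follow for NFKBIA (chr14:35404750-35404999, minus strand), TNFAIP3 (chr6:137867009-137867258, plus strand) and DUSP1 (chr5:172771196-172771445, minus strand), the members whose values are given above. Capitals mark the NF-kB motif, which lies on the opposite strand 81 to 72 bases before the start in NFKBIA and 67 to 58 bases before it in TNFAIP3, and the cyclic AMP response element 125 to 118 bases before the start in DUSP1.
NFKBIA: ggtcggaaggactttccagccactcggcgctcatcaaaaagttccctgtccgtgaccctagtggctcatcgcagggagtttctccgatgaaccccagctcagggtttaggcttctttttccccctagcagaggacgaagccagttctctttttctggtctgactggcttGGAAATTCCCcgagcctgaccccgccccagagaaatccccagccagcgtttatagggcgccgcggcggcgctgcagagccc
TNFAIP3: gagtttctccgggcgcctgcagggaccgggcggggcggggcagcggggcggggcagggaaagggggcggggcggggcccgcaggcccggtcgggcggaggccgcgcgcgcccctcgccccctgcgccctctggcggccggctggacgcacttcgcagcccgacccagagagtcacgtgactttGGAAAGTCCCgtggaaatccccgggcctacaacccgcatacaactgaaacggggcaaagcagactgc
DUSP1: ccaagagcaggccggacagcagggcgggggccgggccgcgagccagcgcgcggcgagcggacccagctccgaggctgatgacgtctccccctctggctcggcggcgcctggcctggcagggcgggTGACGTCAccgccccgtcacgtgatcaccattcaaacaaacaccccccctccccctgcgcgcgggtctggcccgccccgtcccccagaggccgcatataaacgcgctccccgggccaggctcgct

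KLF and SP factors bind GC-rich promoter boxes, and of 14 tested 7 rose and 1 fell (median log2 0.83). KLF2, a factor that quiets inflammatory genes in myeloid cells, read 1.69, 1.08 and 2.56 CPM with vehicle and 86.4, 77.4 and 82.1 CPM with OTX015, close together within each group and far apart between them (log2 5.58, SE 0.47, adjusted p = 2.33e-09). KLF13 rose from 16.9 ± 0.942 to 73.5 ± 5.6 CPM. KLF4, a factor of monocyte differentiation, read 28, 18.4 and 82.1 CPM with OTX015 against 0.843, 1.08 and 3.83 CPM, so both groups were highest in replicate 3 (log2 4.46, SE 1.03, adjusted p = 0.00118). Its log2 change was 5.07 without vehicle replicate 3 and 3.75 without OTX015 replicate 3. The GC box GGGCGG, on both strands, was in 77.5% of promoters of genes that rose, 68.7% of those that fell and 72.5% of those not called, against 44.6% of all promoters; median GC content was 68%, 63.7% and 65.7% in the same order.

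Cell death genes moved on both sides of the balance. Of 30 BCL2 family and death genes, 13 rose and 5 fell (median log2 0.36). BCL2, which blocks apoptosis, read 83.4, 86.8 and 98.4 CPM with vehicle and 25.7, 20.3 and 40 CPM with OTX015 (log2 −1.72, SE 0.27, adjusted p = 1.54e-05). BMF, a BH3-only protein that promotes it, went from 5.06, 7.59 and 2.56 CPM to 45.5, 37.7 and 52.6 CPM (log2 2.94, SE 0.30, adjusted p = 5.75e-08). Inhibitors of death signalling rose too: CFLAR, which blocks caspase-8, from 36.4 ± 11.6 to 475 ± 64.3 CPM (log2 3.69, SE 0.29), and BIRC3 from 1.07 ± 0.218 to 23.8 ± 2.83 CPM (log2 4.34, SE 0.59). TNFSF10, the death ligand TRAIL, rose from 17.1 ± 4.99 to 89.8 ± 28.7 CPM. Of 29 p53 targets, 15 rose and 2 fell (median log2 0.98), among them TP53I3, an oxidoreductase (2.06 ± 0.841 to 45.4 ± 15.4 CPM), GADD45B (8.62 ± 1.06 to 88.6 ± 38.1 CPM) and RRM2B of the DNA repair nucleotide supply (18.4 ± 3.96 to 53.8 ± 15.4 CPM).

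The myeloid programme changed by layer. Of 17 primary granule and progenitor genes, 9 fell and 1 rose, with the lowest median of all lists of at least 10 tested genes (log2 −1.94). AZU1, an antimicrobial protein of primary granules, read 1360, 1761 and 608 CPM with vehicle and 177, 142 and 185 CPM with OTX015, the vehicle libraries spreading widely but all above the treated ones (log2 −2.89, SE 0.33, adjusted p = 2.16e-07). CLEC11A, a growth factor of blood progenitors, went from 579, 559 and 312 CPM to 54.9, 57.1 and 50.5 CPM (log2 −3.15, SE 0.27, adjusted p = 3.14e-09). MS4A3, a membrane protein of early granulocytes and monocytes, averaged 219 ± 41.4 CPM with vehicle and fell to 5.16 ± 3.33 CPM (log2 −5.21, SE 0.37), and without OTX015 replicate 2 its log2 change was −5.84. As in any bulk sample, fewer cells that express a gene and less RNA per cell cannot be told apart.

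More transcription factors of the stem and myeloid programme rose than fell, and most, like most genes tested, did not pass the test. Of 30 myeloid factors, 11 rose (36.7%) and 2 fell (6.67%), with a median log2 of 0.42. Of 17 HOX genes and cofactors 7 rose (41.2%) and 0 fell (median log2 0.24). Over all genes tested 20.5% rose and 19.9% fell. HOXA9, which sustains self-renewal in leukaemia, read 126, 131 and 106 CPM with vehicle and 375, 306 and 278 CPM with OTX015, and its cofactor MEIS1 21.9, 30.4 and 20.4 CPM and then 118, 104 and 105 CPM (log2 2.12, SE 0.21, adjusted p = 4.05e-08). All treated libraries of both genes were above all vehicle libraries. HOXA3 rose from 19.9 ± 8.48 to 158 ± 20.6 CPM and HOXA7 from 29.8 ± 4.93 to 117 ± 17.9 CPM. Among the myeloid factors, LMO2 rose from 56.1 ± 15 to 202 ± 61.2 CPM, RUNX2 from 249 ± 83.2 to 766 ± 95.1 CPM and GFI1 from 55 ± 9.72 to 126 ± 5.24 CPM. MYB, a factor of immature blood cells, overlapped between groups at 81.7, 138 and 160 CPM with vehicle and 61.9, 66.8 and 128 CPM with OTX015 (log2 −0.61, SE 0.28, adjusted p = 0.0827). It passed the test with the replicate block (−0.63, adjusted p = 0.0207), with the libraries numbered 1 and 2 alone (−0.76, adjusted p = 0.00515), without vehicle replicate 1 (−0.85, adjusted p = 0.0227) and without OTX015 replicate 3 (−0.97, adjusted p = 0.0107).

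Genes of mature monocytes split evenly, 7 up and 7 down of 23 (median log2 −0.06). ITGAX, the integrin CD11c, read 6.74, 8.68 and 5.11 CPM with vehicle and 92.2, 60.9 and 92.6 CPM with OTX015 (log2 3.45, SE 0.29, adjusted p = 1.02e-08). S100A8, a subunit of calprotectin, rose from 215 ± 88.9 to 1707 ± 351 CPM and CTSB, a lysosomal protease, from 19.1 ± 8.22 to 162 ± 43.8 CPM, whereas AIF1, an actin-binding protein of macrophages, fell from 558 ± 87.6 to 113 ± 8.61 CPM. CD14 and ITGAM were not among the genes tested. Of 24 adhesion genes, 11 rose and 3 fell (median log2 0.56). ITGB2, the common beta chain of the leukocyte integrins, rose from 131 ± 23.9 to 811 ± 68.6 CPM (log2 2.64, SE 0.30). ICAM1, its ligand, rose from 1.63 ± 0.783 to 33.4 ± 7.14 CPM, and ITGB3 had 0 tags with vehicle and 21, 34 and 29 tags with OTX015, at least 45.1-fold higher.

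Receptors for growth factors and cytokines rose in 16 of 25 cases, with 1 fall (median log2 0.96). FLT3, a receptor kinase of progenitors, read 103, 105 and 75.4 CPM with vehicle and 319, 316 and 263 CPM with OTX015 (log2 1.66, SE 0.23, adjusted p = 3.08e-06). IL3RA rose from 15.7 ± 7.96 to 73.3 ± 17.9 CPM and TGFBR2 from 11.7 ± 3.53 to 52.7 ± 4.42 CPM. Of 20 interferon, IRF and STAT genes, 8 rose and 3 fell (median log2 0.29), with IRF7, which drives interferon genes, going from 4.67 ± 2.32 to 62.7 ± 7.76 CPM and SOCS1, which brakes cytokine signals, from 4.41 ± 0.614 to 88.8 ± 50.8 CPM. Of 17 antigen presentation genes, 6 fell and 0 rose (median log2 −0.32). Those named by the rule were PSMB8 (168 ± 67.6 to 32.9 ± 6.25 CPM), PSMB9 and PSMB10 of the immunoproteasome and TAP2 of the peptide pump.

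Lysosome and autophagy genes rose in 20 of 40 cases, with 3 falls (median log2 0.76). SQSTM1, the receptor that delivers cargo to autophagosomes, read 41.3, 39.6 and 47.3 CPM with vehicle and 181, 219 and 368 CPM with OTX015 (log2 2.57, SE 0.28, adjusted p = 1.16e-07), and GABARAPL1 rose from 5.7 ± 1.29 to 50.7 ± 12.2 CPM. FTH1, the heavy chain of the iron store ferritin, rose from 576, 355 and 556 CPM to 5855, 6400 and 12637 CPM, the highest level in OTX015 replicate 3 (log2 4.07, SE 0.45, adjusted p = 1.56e-07). The metal handling list to which it belongs had 4 rises (18.2%) and 3 falls (13.6%) among 22 (median log2 0.05). Both shares lie below the 20.5% and 19.9% of all genes tested. Of 34 chaperone genes, 18 fell and 0 rose (median log2 −0.76), with CCT2 of the cytosolic chaperonin at 302, 278 and 310 CPM with vehicle and 105, 105 and 101 CPM with OTX015 (log2 −1.51, SE 0.24).

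Of 50 histone acetylation and methylation enzymes, 15 rose and 6 fell (median log2 0.38), with SIRT1, a deacetylase, rising from 17.5 ± 2.13 to 95.9 ± 41.7 CPM and KDM5B, a demethylase of H3K4, from 69.8 ± 13.8 to 218 ± 50 CPM. Of 56 clustered histone genes, 7 fell (12.5%) and 1 rose (1.79%), with a median log2 of −0.31. Both shares lie below the 19.9% and 20.5% of all genes tested. Near-identical copies make their values uncertain. In this list 12 fell with DESeq2 and 4 without vehicle replicate 1 or without OTX015 replicate 1. Among 24 nuclear long non-coding RNAs and hosts of small nucleolar RNAs, 6 rose and 10 fell (median log2 −0.22). NEAT1, the scaffold of paraspeckles, read 103, 100 and 57.5 CPM with vehicle and 1895, 2195 and 5725 CPM with OTX015 (log2 5.22, SE 0.62, adjusted p = 4.44e-07). The 1 library OTX015 replicate 3 stood far above the others, and without it the log2 change was 4.54 (4.37 with the libraries numbered 1 and 2 alone). DANCR, a small nucleolar RNA host, fell from 202 ± 7.29 to 57 ± 8.07 CPM.

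The largest rises by the naming rule included SRD5A1, a steroid 5-alpha reductase, which read 4.21, 6.51 and 1.28 CPM with vehicle and 315, 343 and 571 CPM with OTX015 (log2 6.43, SE 0.40, adjusted p = 2.88e-11, the smallest of all genes). CLIC3, an intracellular chloride channel protein, had 0 tags with vehicle and 56 with OTX015, at least 30.1-fold higher. LFNG, a glycosyltransferase that tunes Notch receptors, rose from 6.27 ± 0.323 to 203 ± 72.9 CPM (log2 4.96, SE 0.42). At the other end, SLC38A5, a glutamine transporter, had 87 tags with vehicle and 0 with OTX015, at least 18-fold lower. MS4A6A had 163 tags and 1 tag, a ratio of 101 with a counting interval of 17.9 to 4018, and POLR3G, a subunit of RNA polymerase III, 135 and 2 tags, a ratio of 41.9 (11.4 to 349). No overlap between the 2 groups was a condition of the rule that named these genes.

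RNA classes differed in their share of rises. Of 144 antisense genes, 37.5% rose and 4.86% fell, and of 194 other long non-coding genes 27.8% and 11.3%, against 19.8% and 20.5% of 9312 protein-coding genes. Each promoter in the deposited table carries a strand in its name. Among the promoters, those up to 10 bases wide rose in 33.2% and fell in 21.4% of 271 cases, those over 50 bases wide in 17% and 20.8% of 5462. Of 47 promoters on the mitochondrial chromosome, 16 rose (34%) and 0 fell.

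At the level of promoters, 12867 were tested, of which 2644 rose (20.5%) and 2576 fell (20%). Promoter positions are given in hg19, as the table names them. The rule for named promoters gave first a start of SRD5A1 (chr5:6633657-6633672, plus strand), 123 bases downstream of the promoter with the most vehicle tags. It had 0 tags in every vehicle library and 91, 119 and 125 with OTX015, at least 176-fold higher, and took 33.7%, 33.5% and 46.1% of the gene's tags with OTX015. A promoter of the ribosomal protein gene RPL34 (chr4:109541684-109541697, plus strand) had 48, 39 and 19 tags with vehicle and 0 in every OTX015 library, at least 22.4-fold lower.

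Promoters of 1 gene often responded unequally. Of 1925 genes with at least 2 tested promoters, 473 (24.6%) had a change in promoter usage by the gene-level F test, and 287 by the Simes test on single promoters. In 57 genes 1 promoter rose while another fell. ALDOA, which encodes the glycolytic aldolase A, had the smallest usage p (adjusted p = 8.32e-30). A start at chr16:30077074-30077091, 26 bases upstream of the main vehicle promoter, took 19%, 24% and 28.5% of ALDOA tags with vehicle and 74%, 78% and 77% with OTX015. It was the only start of the gene shown to rise (log2 0.90, SE 0.29, adjusted p = 0.015), while the main one fell (log2 −1.75) and the starts 1637 and 1577 bases upstream fell, the latter from 13.9% ± 2.79 to 0.297% ± 0.271 of tags.

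SMARCD2, a subunit of SWI/SNF chromatin remodellers, exchanged its promoters. The promoter at chr17:61920023-61920110 took 76.5%, 78.2% and 78.6% of tags with vehicle and 12.9%, 21.6% and 20% with OTX015. The one 233 bases upstream took 10.2%, 8.97% and 9.52% and then 83.9%, 75.7% and 80%. The groups were wide apart at both (usage adjusted p = 5.93e-11, Simes 3.24e-07), and the gene as a whole fell (log2 −0.99). RALY, an RNA-binding protein gene, went the other way and gathered onto its main start, from 38.5% ± 3.24 to 81.6% ± 1.75 of tags, as 3 starts around it fell. In SEPTIN9, a cytoskeletal GTPase gene with widely spaced promoters, the cluster 131999 bases upstream of the main start fell from 26.5% ± 6.94 to 2.41% ± 2.09 of tags, and one 78133 bases upstream rose from 1.29% ± 1.27 to 23.6% ± 6.57.

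Singled out after its values were seen, PFKFB3, the enzyme that sets the fructose-2,6-bisphosphate level, also changed over a long distance. Its upstream promoter took 64%, 74.4% and 88.2% of tags with vehicle and 13.5%, 22.5% and 5.83% with OTX015, and the promoter 58040 bases downstream 12%, 5.13% and 11.8% and then 76.9%, 70.4% and 92.5%. The upstream promoter kept 16.6 and 12.9 CPM (log2 −0.35, SE 0.39, adjusted p = 0.507), and the downstream one rose from 2.11 to 111 CPM on average (log2 5.65, SE 0.81; Simes adjusted p = 0.00191). Over the 471 called genes with tags in every library, the most used promoter differed between the groups' means in 140 and in every library in 73. Of those 73, the new main promoter lay downstream in 36 and upstream in 37, within 100 bases in 32 and over 1000 bases away in 13. With promoters within 100 bases merged, an alternative chosen after seeing the data, 658 genes could be tested and 223 were called (33.9%), 172 of them also before merging.

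**Figure D3:**
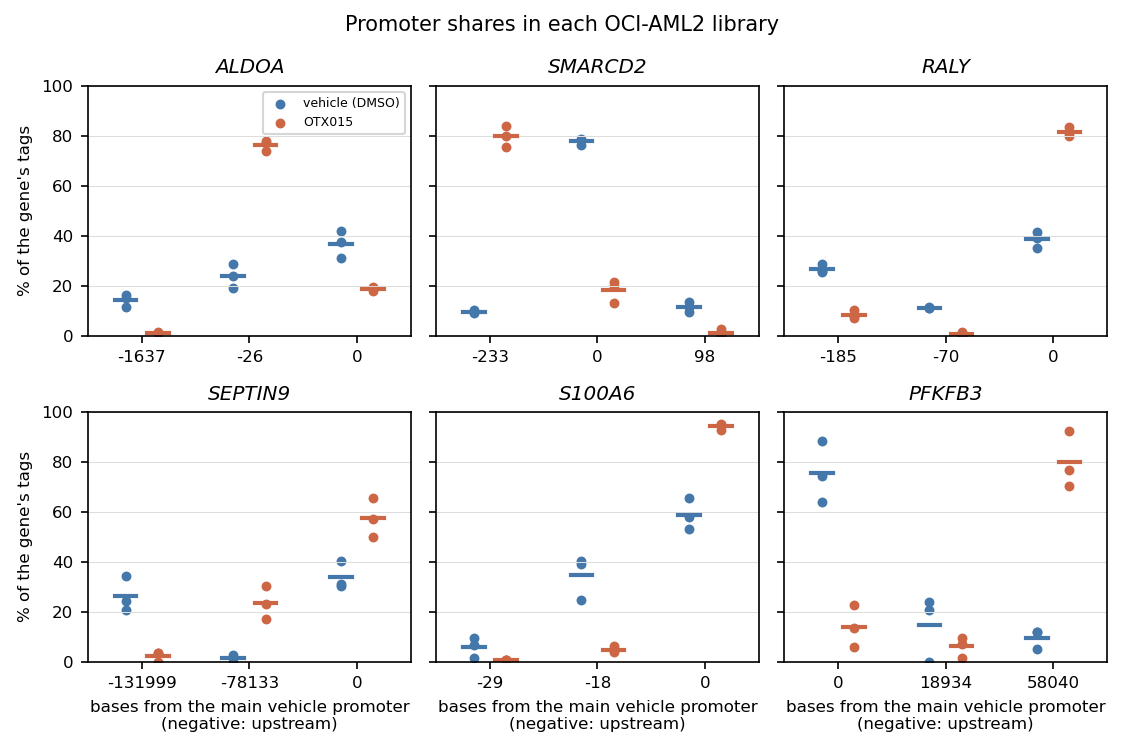
Share of a gene's tags at its promoters in each OCI-AML2 library, in percent; up to 3 promoters per gene are placed by their distance in bases from the main vehicle promoter, points are libraries and short bars means of 3. In SMARCD2 the promoter 233 bases upstream goes from 9.57% to 79.8% on average, and in PFKFB3 the one 58040 bases downstream from 9.63% to 79.9%.

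Ribosomal protein genes showed a form of this change in which tags gathered at the main start. Of 38 ribosomal protein genes tested for usage, 30 were called by the F test and 29 by the Simes test, where 24.6% of all genes tested were called by the former and 14.9% by the latter. These genes are deeply counted, with a median of 17373 tags over the 6 libraries. Among 95 other genes with at least as many tags as the lowest of them, 34.7% were called. In 28 of the 30, the main promoter took a larger share in every OTX015 library than in any vehicle library, and in 0 a smaller one. In the 441 other called genes the share was larger in 140 and smaller in 244. The main promoter was the one with the largest vehicle share, in genes already called for changed usage. That choice favours a smaller share with OTX015, so these counts are a description and not a test.

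RPS14 had the smallest usage p of the list (adjusted p = 1.22e-12). Starts outside its main promoter took 6.27% of tags with vehicle and 1.27% with OTX015 on average, and the gene did not pass the test at the gene level (log2 −0.87, SE 0.48, adjusted p = 0.148). In RPL36 the start 31 bases upstream fell from 24.5%, 21.7% and 22.7% of tags to 3.95%, 4.5% and 5.32%, while the main start read 2907 CPM with vehicle and 3477 CPM with OTX015 on average (log2 0.26, SE 0.48, adjusted p = 0.708). RPS15, RPL15 and RPL41 showed the same pattern, with 19.2%, 28.1% and 36.1% of tags outside the main promoter with vehicle and 5.88%, 10% and 16.3% with OTX015. Over the 30 genes the median share outside the main promoter was 3.95% with vehicle and 0.992% with OTX015. These main promoters were narrow, 6 to 74 bases and 25 at the median, against 47 in the other called genes.

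**Figure D4:**
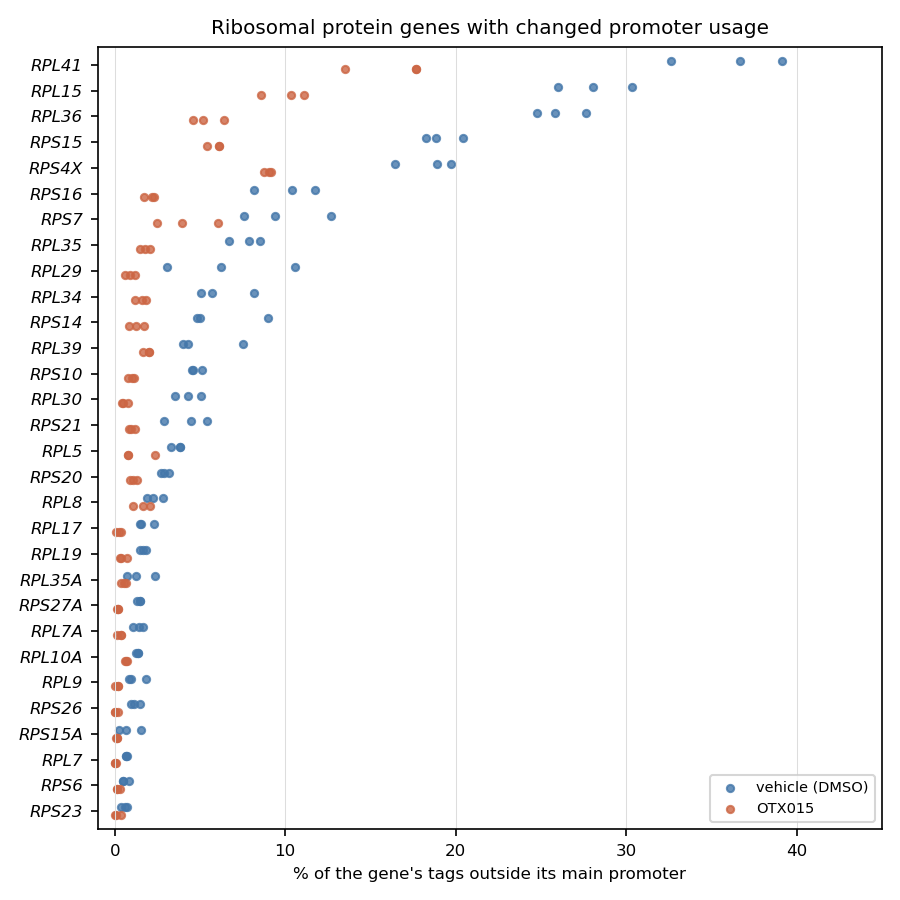
Share of tags outside the main promoter, in percent, for the 30 ribosomal protein genes with a change in promoter usage; each point is 1 OCI-AML2 library, blue vehicle and orange OTX015. In 28 genes every OTX015 library lies below every vehicle library; RPL8 and RPS23 overlap.

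Transcription at enhancers went mostly up. All enhancers together took 2746 to 3302 CPM with vehicle and 5807 to 6270 with OTX015. Of 849 enhancers tested with the scaling of the promoter table, 140 rose (16.5%) and 21 fell (2.47%). The filter counted tags in all libraries of the series, most of them from cells given OTX015 or JQ1. Enhancers with tags mainly in treated cells could therefore enter the test, which favours rises among those tested. With no filter, 84 rose and 11 fell. How much of the balance comes from the filter was not tested. Scaled to the enhancer tags themselves, 51 rose and 35 fell, so the balance of directions depends on the scaling. Without vehicle replicate 1 the counts were 93 and 12 and without vehicle replicate 2 they were 77 and 8. Without OTX015 replicates 1 and 2 in turn, 12 and 9 fell. Counts at single enhancers were low: 26 of the 140 that rose had 0 vehicle tags, and 8 of the 21 that fell had 0 OTX015 tags.

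The gene nearest to a raised enhancer was in most cases one that rose. Of the 140, 103 had the start of a tested gene within 50000 bases, and the nearest such gene rose for 63 (61.2%) and fell for 3 (2.91%). Of 13 lowered enhancers with such a gene, it rose for 1 (7.69%) and fell for 5 (38.5%). Over all 574 tested enhancers with a gene in reach, the shares were 35.7% and 11.3%. Several enhancers can share a gene, and 94 distinct genes stood behind the 103, so these are descriptions and not a test.

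**Figure D5:**
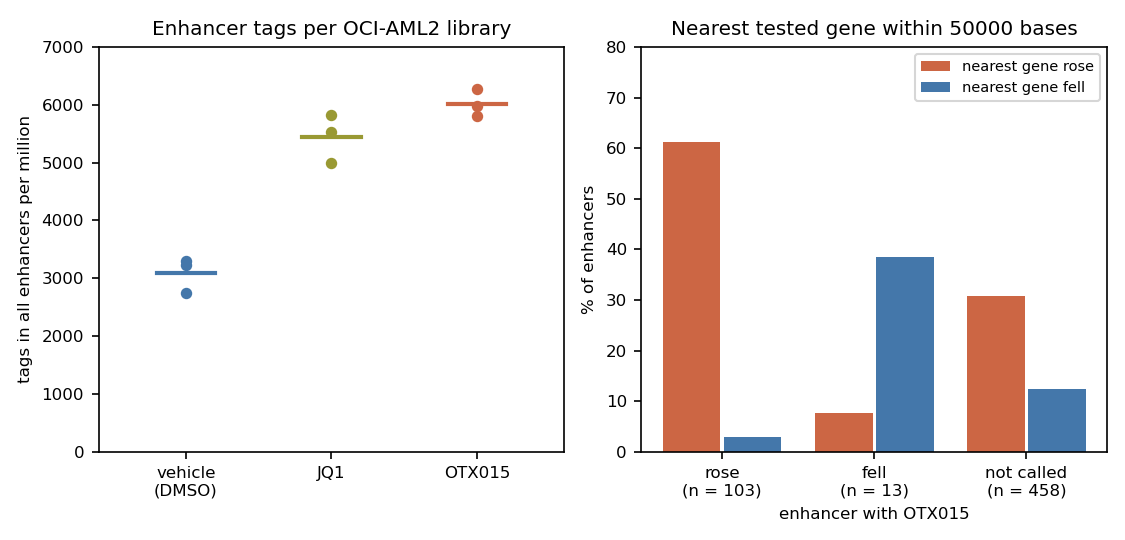
Left, tags in all enhancers, in CPM, in each OCI-AML2 library, with short bars for the mean of 3; right, the share of enhancers, in percent, whose nearest tested gene within 50000 bases rose (orange) or fell (blue), by what the enhancer did with OTX015. The vehicle libraries lie at 2746 to 3302 and the OTX015 libraries at 5807 to 6270, and the nearest gene rose for 61.2% of raised and 7.69% of lowered enhancers.

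The enhancer with the clearest rise lay 823 bases from a start of LMO2 (chr11:33892999-33893225, no build in its name, read as hg38, intergenic in GENCODE). It had 2, 1 and 0 tags with vehicle and 86, 126 and 133 with OTX015, a ratio of 181 with a counting interval of 61.6 to 884. LMO2, a bridging factor of blood stem cell transcription complexes, itself rose (log2 1.86, SE 0.27). A promoter on the minus strand of the same chromosome had nearly the same tags, 2, 1 and 0 and then 80, 119 and 129. It is listed in hg19 (chr11:33914678-33914683) and was matched to no gene. Whether the enhancer and this promoter share tags was not tested, so their rises cannot be taken as separate results. The enhancer with the largest fall (chr8:129554562-129555050, read as hg38, intergenic) had 6, 15 and 4 tags with vehicle and 0 with OTX015, at least 5.28-fold lower. Its nearest tested gene, 128873 bases away, was CCDC26, which also went to 0 tags. Another with 0 OTX015 tags (chr6:159121353-159121804, 24 vehicle tags) had TAGAP as its nearest tested gene, 76426 bases away and so beyond the 50000-base window, and 1 lay in PPARD (chr6:35363337-35363822, 14 vehicle tags). Both of these genes rose.

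OTX015 and JQ1 share a thienotriazolodiazepine core, and OTX015 carries a hydroxyphenyl amide where JQ1 carries a tert-butyl ester. The labels give neither doses nor times, so it is not known whether these were matched, and both compounds are set against the same vehicle libraries. JQ1 raised 1727 (17.2%) and lowered 1742 (17.4%) of the 10031 genes. Set directly against each other in OCI-AML2, the compounds differed at 0 genes by edgeR and at 1 by DESeq2, with 331 genes at an unadjusted p under 0.05, where 502 would be expected by that threshold alone. With the libraries numbered 1 and 2 alone, 3 genes were higher and 1 was lower with OTX015. Over the 8214 genes of at least 10 CPM the median size of the log2 difference was 0.19, and the median half-width of its 95% interval 0.62. The smallest p in this edgeR comparison was that of the histone gene HIST1H3C (log2 −1.49, SE 0.35, adjusted p = 1).

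Named genes differed in how near the values of the compounds lay. The log2 changes with OTX015 and with JQ1 were 4.25 and 3.16 for HEXIM1, −3.15 and −2.74 for MYC and −4.64 and −3.83 for NPM3. They were 4.42 and 4.19 for NFKBIA, 5.58 and 5.52 for KLF2 and 6.43 and 6.18 for SRD5A1. By list, 39 and 38 of 44 nucleolar genes fell, 23 and 21 of 34 NF-kB genes rose, and 30 and 23 of 43 replication genes fell. HIST1H3C lay further apart, at −1.94 and −0.46, as did NOP16, at −2.88 and −2.03. These pairs share their vehicle libraries. In the direct comparison the log2 difference, OTX015 minus JQ1, was 1.10 (SE 0.43) for HEXIM1 and −0.85 (SE 0.24) for NOP16, and neither passed edgeR's test after adjustment, which does not show that the compounds act alike.

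In OCI-AML3, the other line, OTX015 was compared with that line's own vehicle, and the difference between the effects was tested as an interaction. The effect differed for 767 of 10031 genes (7.65%), of which 285 (2.84%) were higher in OCI-AML3 and 482 (4.81%) lower. NF-kB genes made up 12 of them out of 34 tested. In OCI-AML3 12 of the 34 rose and 9 fell, where 23 and 0 did in OCI-AML2. Over all genes tested, 20.5% rose and 19.9% fell in OCI-AML2, and 28.8% rose and 26.1% fell in OCI-AML3. NFKBIA went from 25.9 ± 5.22 to 67.5 ± 3.25 CPM there (interaction log2 −3.02, SE 0.42, adjusted p = 2.86e-05). TNFAIP3 fell there, from 10.6 ± 1.91 to 4.36 ± 2.21 CPM, where it rose in OCI-AML2 (interaction log2 −3.02, SE 0.45, adjusted p = 6.97e-05). Myeloid factors and monocyte genes also differed often, 12 of 30 and 13 of 23.

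Monocyte and surface genes gave the widest differences. GPR84, a receptor for medium-chain fatty acids on myeloid cells, rose in OCI-AML2 from 23.6, 16.8 and 37.1 CPM to 190, 219 and 149 CPM and in OCI-AML3 went from 29.2 ± 7.56 to 0.364 ± 0.631 CPM (interaction adjusted p = 7.21e-09). ITGAX and HVCN1, a proton channel of phagocytes, rose in OCI-AML2 and had 0 tags in OCI-AML3 with OTX015, from 5.37 ± 1.5 and 6.83 ± 1.07 CPM (interaction adjusted p = 8.81e-06 and 9.74e-05). CTSG, a primary granule protease, did not pass the test in OCI-AML2 at 1419 ± 444 and 749 ± 104 CPM (adjusted p = 0.059) and went from 3154 ± 901 to 14.6 ± 9.14 CPM in OCI-AML3 (interaction log2 −6.71, SE 0.63, adjusted p = 1.12e-07). FLT3 rose in OCI-AML2 and fell in OCI-AML3, from 41.4 ± 12.1 to 25 ± 5.9 CPM (interaction log2 −2.38, SE 0.37).

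In the opposite direction, FABP5, a fatty acid carrier, fell in OCI-AML2 from 414, 367 and 322 CPM to 29.2, 50.3 and 82.1 CPM and rose in OCI-AML3 from 243 ± 82.4 to 630 ± 335 CPM (interaction log2 4.21, SE 0.55, adjusted p = 1.42e-05). HMGCS1, which fell 8.14-fold in OCI-AML2, was 69.7 ± 24 and 61 ± 18.7 CPM in OCI-AML3 (interaction log2 2.83, SE 0.42). MYC fell in both lines and by more in OCI-AML2 (interaction log2 1.84, SE 0.34, adjusted p = 0.000737). The effect also differed for 15 of 41 mitosis and 13 of 43 replication genes. In OCI-AML3, 39 of the 41 and 39 of the 43 fell, where 26.1% of all genes tested fell. UBE2C, which drives the exit from mitosis, went from 366 ± 78.9 to 150 ± 53.1 CPM in OCI-AML2 and from 393 ± 81 to 41.4 ± 5.99 CPM in OCI-AML3 (interaction log2 −1.95, SE 0.39). HEXIM1 rose in both, and its interaction did not pass the test (log2 0.44, adjusted p = 0.774).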

How the data were processed

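CAGE libraries of total RNA from OCI-AML2 and OCI-AML3 were analysed from the tag counts that the authors deposited, as whole-number counts per gene symbol, per promoter and per enhancer for 18 libraries. STAR and the genome build hg38 are named in the submitters' processing notes, while promoter names carry hg19 positions; the counting steps and whether positions start at 0 or 1 are not stated in those notes, the labels or the files. Enhancer names without a build were read as hg38 because their distances to gene starts fitted that build.

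The main test was that of edgeR 4.0.16 under R 4.3.3 (quasi-likelihood test, TMM scaling, filterByExpr), in 1 model of 6 groups and 18 libraries with 12 residual degrees of freedom, and p-values were adjusted by Benjamini-Hochberg over all features at a threshold of 0.05. Enhancers needed at least 3 tags in at least 3 libraries and took library sizes and scaling from the promoter table. Promoter usage was tested with edgeR's diffSpliceDGE. On simulated data its gene-level F test made more false calls than its nominal rate and its Simes test did not, so both counts are given. Promoters were assigned to genes where the sum of neighbouring promoters equalled the gene's counts in every library. A fold against 0 tags used a floor of 3 tags over the group, and ratios with 1 to 3 tags have 95% exact counting intervals, which cover counting error only. Promoter sequences are from RefSeq (GRCh38.p14), matched by symbol for 7814 tested genes.

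Named genes were the 15 largest rises and 15 largest falls among called genes with a mean of at least 10 CPM and no overlap between groups, up to 4 members of each list with the smallest adjusted p, and a short list of genes known from BET and leukaemia work (among them BRD2, BRD3, CDK6, MYB, MEIS1, HOXA9, NPM1 and SERPINI1). Named promoters and enhancers were the 6 largest rises and falls by the same rule, and genes of promoter usage the 8 smallest p and up to 8 more with promoters moving in opposite directions. PFKFB3, RPS15, RPL15, RPL41, RPL8 and RPS23 were named after their values were seen. For OTX015 against JQ1 and for the difference between lines, 5 genes each way were eligible. The comparison and the gene lists were chosen with earlier results of these data known. The labels do not say that replicates are separate cultures, so p-values measure only the spread between these libraries, which may be technical. Replicate numbers were not used to pair the samples in the main test, and whether they do pair them is not known. Alternatives covered the scaling, the filters, DESeq2 1.42.0, the libraries in the fit, the replicate block and leaving out each library.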

Additional observations from a re-analysis of the deposited data

Results flagged for a closer look

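The effect of OTX015 differed between the lines by edgeR's interaction test (adjusted p under 0.05) for the following named genes, given as the log2 effect in OCI-AML3 minus that in OCI-AML2. Among regulators of signalling and death it was −3.02 for NFKBIA, −3.02 for TNFAIP3, −2.69 for CFLAR, −2.41 for TNFSF10 and −2.97 for TP53I3. Among transcription factors and chromatin genes it was −3.95 for KLF2, −1.63 for KLF13, −1.91 for RUNX2, −2.11 for GFI1, 1.84 for HOXA3, 1.84 for MYC and −1 for BRD3. For surface, monocyte and granule genes it was −4.20 for ICAM1, −1.72 for ITGB2, −2.38 for FLT3, −3.96 for S100A8, −2.70 for CTSB, −1.55 for AIF1, −6.71 for CTSG and 1.19 for CLEC11A.

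For cell cycle genes the difference was −1.95 for UBE2C, −1.89 for CCNA2, −1.35 for PLK1 and −2.93 for BTG2. For metabolic and other genes it was 2.83 for HMGCS1, 1.36 for ADSL, 4.21 for FABP5, −2.00 for FTH1, −4.29 for SRD5A1, −3.31 for LFNG, 2.20 for DANCR and 1.55 for TAP2. Where a group held 3 tags or fewer, no log2 difference is given and the adjusted p of the interaction was 7.21e-09 for GPR84, 8.81e-06 for ITGAX and 9.74e-05 for HVCN1. A positive difference means a higher effect in OCI-AML3, which for a gene that fell in both lines is a smaller fall.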

How the results depend on the processing

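Of 2101 values of 162 named genes under 13 settings, 2074 kept their direction and their side of the threshold, 23 lost the call, 4 gained it and 0 reversed. Most of the 162 were named for a large change or a small adjusted p in the main fit of the same libraries. A kept call was therefore likely beforehand and says little about genes not named. With the replicate number as a block, 2201 genes rose and 2219 fell, 2873 promoters rose and 2815 fell, and 450 genes had a higher effect in OCI-AML3 (285 without the block). Deviations from the group mean correlated at −0.02, −0.05 and 0.14 between same-numbered vehicle and OTX015 libraries. Vehicle replicate 1 and OTX015 replicate 2 reached 0.19. So few values cannot decide whether the numbers pair the samples. Total tag scaling gave 287 genes with a lower effect in OCI-AML3 (482 with TMM). The libraries numbered 1 and 2 alone gave 492 higher and 918 lower there, and 3 and 1 genes between OTX015 and JQ1, where DESeq2 gave 1 lower and edgeR 0. Promoter usage was called in 287 genes by the Simes test and in 223 with promoters merged within 100 bases (473 by the F test). Enhancers numbered 51 up and 35 down with their own scaling, 84 and 11 with no filter, and 11 down where 6 libraries had to hold 3 tags (140 and 21 as reported). Leaving out each library in turn gave 1656 to 1819 genes higher and 1609 to 1852 lower, 2092 to 2401 promoters higher and 2164 to 2470 lower, 77 to 118 enhancers higher and 8 to 17 lower, 371 to 468 genes of promoter usage, 180 to 324 genes with a higher and 367 to 496 with a lower effect in OCI-AML3, and 0 genes between the compounds. Except where values show it, the cause was not tested. Doses and times are unknown, 1 line was compared, and single enhancers held few tags.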
